A study of Mus musculus with 6 samples.

Results

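The coat protein complex II (COPII) machinery was followed through 10 genes in mouse liver RNA: Sec13, Sec16a, Sec23a, Sec23b, Sec24a, Sec24c, Sec24d, Sec31a, Sar1b and Lman1. Members were found as probes whose gene symbol in the array annotation is one of these names. This gave 13 probes for 9 of the 10 genes, out of 19057 named genes in all; Sec23b was named by no probe in the annotation used. A probe counted as detected above a deposited intensity of 129, and 11 of the 13 probes were detected on at least 1 of the 6 arrays. The Sec24a probe and the dimmer of 2 Sec24c probes were not, so 8 genes had a usable level, each detected on all 6 arrays by its brightest probe.

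The design sets livers with induced Xbp1s against wild-type livers; Xbp1s is the product of the spliced Xbp1 mRNA and an activator of ER stress genes. All mice were FVB and 10 weeks old, and every array carried a pooled liver sample, of how many animals the sources used here do not say. LIXs mice carry a doxycycline-inducible (TRE) Xbp1s transgene, and the promoter that drives the doxycycline-responsive activator is not given in the labels. LIXs and wild-type (WT) mice both received doxycycline (Dox) chow, for 24 h or 48 h, with 6 h of fasting before the liver was taken, so the WT controls were exposed to the drug as well. A WT pool refed for 2 h and a WT pool fasted for 24 h completed the set, for which the labels name no Dox. With 1 array per group, precision is limited by the number of arrays.

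COPII vesicles carry newly made proteins out of the endoplasmic reticulum (ER). The GTPase Sar1 is switched on at the ER membrane, recruits an inner coat of Sec23 and Sec24, which selects cargo, and then an outer cage of Sec13 and Sec31, while the scaffold Sec16 marks the exit sites where this happens. Hepatocytes depend on this route to secrete plasma proteins and lipoproteins, and in mammalian cells Xbp1s is known to raise the expression of many of its genes.

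The genotype labels could not be checked. Xbp1 itself read 4537 (LIXs) and 4259 (WT) after 24 h of Dox, then 4350 (LIXs) and 5210 (WT) after 48 h, a difference of -0.09 ± 0.22 (log2, SE, limma adjusted p = 0.836). One probe reports Xbp1 and its place relative to the transgene is not given, so this probe gives no check of genotype, and every direction given here is that of the labels. The genes of the transport machinery that passed the test described below were lower on the arrays labelled LIXs, which is opposite to the known effect of Xbp1s on this route. Whether the labels are exchanged was not tested, and every sign between LIXs and WT would turn if they were. Of 11 hepatocyte markers 10 were detected on every array, although the Alb probe was dim, at 130 to 163. The array labelled LIXs at 24 h carried signal of pancreatic genes: of 18 acinar genes 15 had a probe, and their summed intensity was 18156 there, against 3234 to 5778 on the other 5 arrays, and all 15 were detected on each of the 4 Dox arrays. At 48 h the sums were 5280 (LIXs) and 4718 (WT). Sums of 5 endothelial markers, of which Kdr was never detected, were 5641 and 4545 on the LIXs and WT arrays at 24 h, 5737 and 4582 at 48 h, and 6998 refed and 9555 fasted. Most of each sum was Clec4g, at 4948 and 3928, 5072 and 3941, and 6321 and 8949 in the same order. From refed to fasted, Lyve1 (190 and 123) and Stab2 (238 and 213) went the other way, and Pecam1 (124 and 148) rose. Sums of 5 of 6 macrophage markers, of which Cd5l was never detected, were 1722 and 1364, 1496 and 1376, and 1914 and 1891, in the same order. The part of these markers in the results that follow was not tested. In whole-liver RNA, fewer cells of a type and less RNA per cell cannot be told apart.

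Sec16a and Sec13 were lower on both arrays labelled LIXs than on both labelled WT. Sec16a, the large scaffold of ER exit sites, had deposited intensities of 729 (LIXs) and 1865 (WT) at 24 h, 835 (LIXs) and 1303 (WT) at 48 h, 907 refed and 1380 fasted. Its 2 LIXs arrays were the lowest of the 6, and the genotype labels did not overlap. Sec13, a subunit of the outer cage, read 3386 and 6392 at 24 h, 3896 and 6338 at 48 h, 3907 refed and 3227 fasted. The 2 WT arrays on Dox stood well above the other 4 for this gene. The genotype labels were compared with limma on the 4 Dox arrays over all 7654 genes detected on at least 2 of them, on background-corrected log2 intensities. Time on Dox entered the fit as a block, and p-values were adjusted by the Benjamini-Hochberg method. Sec16a fell by 1.09 ± 0.24 (SE, 2 arrays per genotype, limma adjusted p = 0.032), or 2.13-fold. Sec13 fell by 0.83 ± 0.21 (limma adjusted p = 0.041), or 1.77-fold.

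Those were 2 of 8 tested COPII genes that passed as lower, and 0 passed as higher, where 4.32% of all tested genes passed as lower and 4.14% as higher. The fit has 1 residual degree of freedom and takes most of its error from all genes together. An SE near 0.21 is thus not a gene's own spread. No group has a second array, so that residual is the gap between a gene's 24 h and 48 h differences. It mixes spread between arrays of pools with any real change between the times, and spread between animals was not measured. Simulated arrays of this layout, drawn without a difference between times, gave more false calls in some runs than the threshold allows on average. The adjusted p-values may thus be too small. Both calls ended without the time block (limma adjusted p = 0.104 for Sec13 and 0.103 for Sec16a) and without the filter on dim probes (0.141 and 0.144). Leaving out any 1 of the 4 arrays ended that of Sec13, with differences of -0.93 to -0.72. For Sec16a the call ended without either 24 h array or without the LIXs array at 48 h. Its differences with 1 array left out ran from -1.37 to -0.82. Such fits have 1 array under a genotype label and no time block, so a lost call cannot be laid to the array left out.

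**Figure D1:**
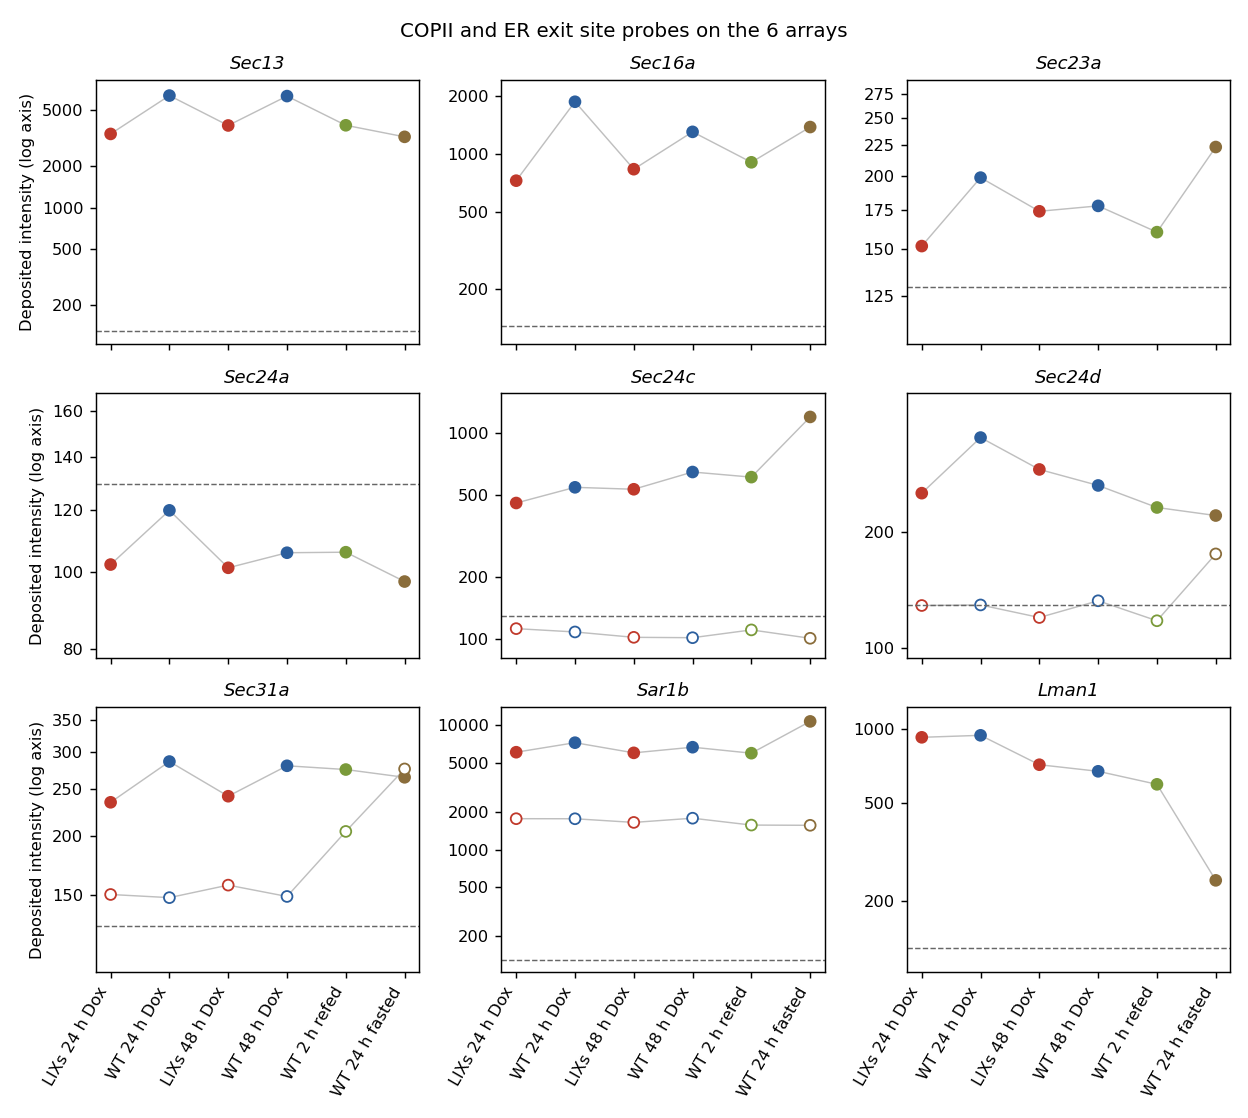
Deposited intensity (log axis, 1 panel per gene with its own scale) of every COPII probe on the 6 arrays. Red points are arrays labelled LIXs on Dox, blue WT on Dox, green WT refed and brown WT fasted; filled points are the brightest probe, open points a second probe, and the dashed line is the detection level of 129. Sec16a and Sec13 zigzag with the genotype label, while Lman1 drops to 244 and Sec24c rises to 1196 on the fasted array.

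The promoter windows of these genes are shown for the short elements around their starts that resemble known XBP1 motifs. In RefSeq's GRCm38.p6 table, 9 of the 10 genes had a window of 250 bases before to 50 bases after an annotated start, 11 windows in all. The motifs were searched on both strands: first the 5-base element CCACG and the element ACGTG, which is the core of XBP1-type motifs, then the box CCAAT, and then the ER stress response element, in which that box is followed after 9 bases by the first element. The first and second overlap in many places. ACGTG was present in 8 of 11 COPII windows (72.7%), against 19.7% of all 32544 windows, and CCACG in 63.6% against 33.0%. CCAAT was present in 36.4% against 37.4%, and the full ER stress response element in 0 of 11, against 0.12% of all windows. The COPII windows held a median of 18 CpG steps, against 7 over all windows, and among windows with at least 18 the share with ACGTG was 28.9%. The longer element TGACGTGG, added to the search after the windows were read, was present in those of Sec23a and Sec24d, and in 0.682% of all windows. It was also in 1 of 17 windows of the other named secretory genes, a window of Stx5a. Among these 17 windows 29.4% held ACGTG, in Sar1a, Mcfd2, Lman2, Gosr2 and Stx5a. The 17 mix transport genes with genes of secreted proteins or lipoprotein export, F5, Alb, Serpinc1 and Mttp, none of which held it. Trappc1 had no window. A match describes letters and not a bound site.

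Promoters of the 2 genes that passed the test, of Sec24d with the longer element, of Sar1b with no ACGTG and of the cargo adaptor Mcfd2 are printed 5′ to 3′ on the gene's strand up to 30 bases after the start. Capitals mark the short motifs above on either strand. They lie at chr6:113740652-113740931 (minus strand, Sec13), chr2:26445187-26445466 (minus, Sec16a), chr3:123267246-123267525 (plus, Sec24d), chr11:51763413-51763692 (plus, Sar1b) and chr17:87265918-87266197 (minus, Mcfd2).
Sec13: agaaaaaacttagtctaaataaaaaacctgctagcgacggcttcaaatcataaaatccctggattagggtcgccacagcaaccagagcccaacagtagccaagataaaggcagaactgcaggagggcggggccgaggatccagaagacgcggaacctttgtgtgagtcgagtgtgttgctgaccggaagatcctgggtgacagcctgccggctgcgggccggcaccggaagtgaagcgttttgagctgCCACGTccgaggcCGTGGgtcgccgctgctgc
Sec16a: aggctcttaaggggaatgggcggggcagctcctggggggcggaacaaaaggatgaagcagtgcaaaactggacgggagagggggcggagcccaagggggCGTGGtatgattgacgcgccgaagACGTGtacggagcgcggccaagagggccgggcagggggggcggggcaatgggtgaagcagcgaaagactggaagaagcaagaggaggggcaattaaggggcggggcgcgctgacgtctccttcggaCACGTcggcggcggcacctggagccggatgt
Sec24d: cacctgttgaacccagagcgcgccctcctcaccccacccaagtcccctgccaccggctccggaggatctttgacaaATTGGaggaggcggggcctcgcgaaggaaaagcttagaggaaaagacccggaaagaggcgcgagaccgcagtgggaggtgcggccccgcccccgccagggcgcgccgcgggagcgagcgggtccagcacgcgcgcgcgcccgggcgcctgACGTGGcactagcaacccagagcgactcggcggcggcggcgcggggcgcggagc
Sar1b: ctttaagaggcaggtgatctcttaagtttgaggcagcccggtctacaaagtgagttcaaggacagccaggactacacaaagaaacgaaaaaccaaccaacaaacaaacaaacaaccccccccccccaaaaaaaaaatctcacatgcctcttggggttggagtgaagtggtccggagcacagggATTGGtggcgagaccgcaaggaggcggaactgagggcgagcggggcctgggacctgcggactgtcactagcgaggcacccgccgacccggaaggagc
Mcfd2: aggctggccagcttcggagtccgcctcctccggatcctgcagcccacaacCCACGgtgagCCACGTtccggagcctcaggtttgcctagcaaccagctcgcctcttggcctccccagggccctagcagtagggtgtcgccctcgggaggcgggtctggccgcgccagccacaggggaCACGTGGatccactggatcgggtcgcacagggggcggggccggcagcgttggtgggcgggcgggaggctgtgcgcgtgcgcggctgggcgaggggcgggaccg

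Sec13 has its ACGTG element across the annotated start, and Sec16a has one across the start and another between 127 and 123 bases before it. In Sec24d it lies between 24 and 20 bases before the start. Mcfd2 holds 3 matches to ACGTG, all upstream of the start. Those between 73 and 68 bases before the start are the same palindrome, CACGTG, read on both strands. The window of Sar1b holds a CCAAT box only. Both Sec24d and Sec16a thus hold ACGTG, and of these Sec16a passed the test and Sec24d did not.

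The partners of Sec13 in the coat had smaller differences that did not pass. Sec31a, the other subunit of the outer cage, read 235 (LIXs) and 286 (WT) at 24 h, then 242 (LIXs) and 280 (WT) at 48 h, against 275 refed and 265 fasted. The genotype labels did not overlap for this probe, and its averaged difference was -0.39 ± 0.21 (log2, limma adjusted p = 0.252). A second Sec31a probe, dimmer on the Dox arrays, gave 151 and 148 at 24 h and 157 and 149 at 48 h, with an averaged difference of 0.13 (adjusted p = 0.744 among all probes). The 2 probes therefore pointed in opposite directions for this gene.

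Among inner coat genes, Sec23a, which triggers GTP hydrolysis by Sar1, read 152 and 198 on the LIXs and WT arrays at 24 h and 174 and 178 at 48 h. It was close to the detection level, and nearly all of its averaged difference of -0.45 ± 0.24 (limma adjusted p = 0.242) came from the 24 h pair, at -0.84 against -0.06. Without background correction the 24 h value was -0.39. Sec24c, a cargo-binding subunit, read 457 and 544 at 24 h and 533 and 646 at 48 h. The LIXs array was lower by a similar amount at both times (-0.31 and -0.33), which did not pass (averaged -0.32, limma adjusted p = 0.341).

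Sec24d, a further cargo-binding subunit, changed sign between times. It read 252 and 351 on the LIXs and WT arrays at 24 h and 290 and 264 at 48 h, differences of -0.70 and 0.21, with an average of -0.25 ± 0.25 (limma adjusted p = 0.560). Its second probe was at the detection level, between 120 and 133 on the Dox arrays. Sec24a, another cargo-binding subunit of the inner coat, stayed between 97.3 and 120 on all arrays, below the detection level, so that no difference could be measured.

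Sar1b, the GTPase that starts the coat and whose loss in people impairs chylomicron export, read 6063 and 7234 at 24 h and 5993 and 6653 at 48 h on the LIXs and WT arrays. Both LIXs arrays lay below both WT arrays, with an averaged difference of -0.21 ± 0.21 that did not pass (limma adjusted p = 0.560). A second Sar1b probe showed 1770 and 1768 at 24 h and 1652 and 1786 at 48 h, or -0.06 on average. Lman1, also called ERGIC-53, is the lectin that ferries coagulation factors V and VIII out of the ER. It read 926 and 944 at 24 h and 717 and 674 at 48 h, an averaged difference of 0.04 ± 0.21 (limma adjusted p = 0.933).

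Counted together by brightest probe, the averaged difference was negative in 7 of the 8 tested genes, against 3761 of all 7654. Its median was -0.35, against a median of 0.0086 over all genes tested. In 6 of the 8 both LIXs arrays were below both WT arrays, which held for 26.9% of all tested genes. For Sec23a the gap was 174 against 178, near the detection level. The second Sec31a probe had both LIXs arrays above both WT arrays, and the second Sar1b probe overlapped. The median difference was -0.57 at 24 h, with 8 of 8 below 0, against 3714 of all 7654 genes. At 48 h it was -0.24, with 6 of 8 below 0, against 3774 of all genes. This contrast between times was not tested. The members were chosen with earlier results of these data known, and all share the same arrays. Counts of members, here and above, thus describe them and give no independent support. Of the detected second probes, those of Sec31a (0.06) and Sar1b (0.002) were above 0 at 24 h and that of Sec24d (-0.02) was below. The 24 h median was -0.33 without background correction, and also with the mean of a gene's detected probes, and the averaged median was -0.22 without the LIXs array at 24 h. At a 2-fold difference without a test, 1 of 8 was lower at 24 h (Sec16a at -1.48, 2.79-fold), as were 4.87% of all 8050 genes detected on at least 1 array of that pair, and 0 of 8 at 48 h, against 2.43% of 8114. In the 48 h pair alone, Sec13 and Sec16a differed by -0.72 and -0.71.

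**Figure D2:**
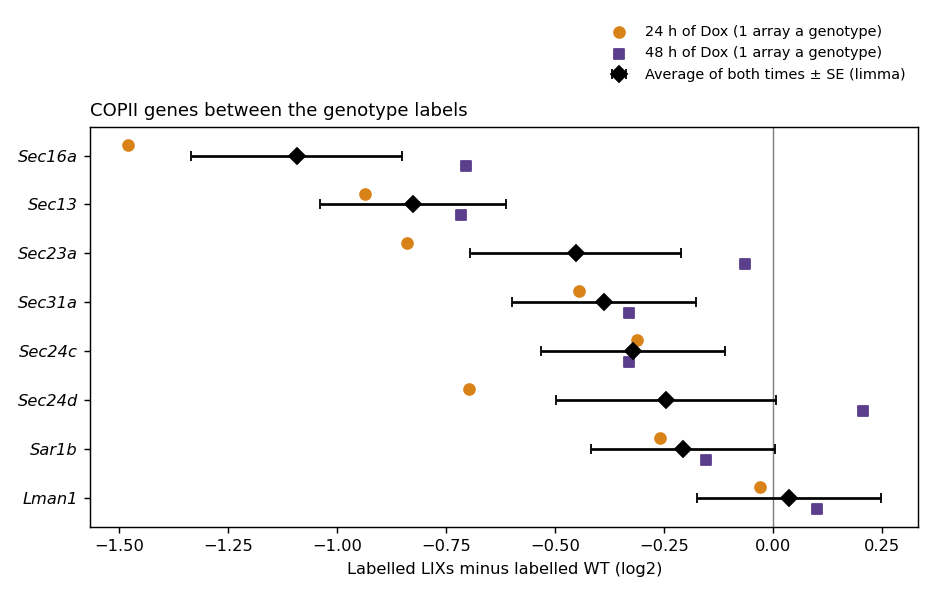
Log2 difference between arrays labelled LIXs and WT for the 8 tested COPII genes. Circles are the 24 h pair, squares the 48 h pair and diamonds the limma average with its SE. Sec16a (-1.09) and Sec13 (-0.83) passed the adjusted test; Sec24d and Lman1 lie on opposite sides of 0 at the 2 times.

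Between 24 h and 48 h of Dox the levels were read within each genotype label, on the same arrays as above. Sec13 was nearly constant on the WT arrays (-0.01), while Sec16a was lower at 48 h on the WT arrays (-0.55) and slightly higher on the LIXs arrays (0.22). Sec24d had the same contrast, -0.59 and 0.31. Lman1 was lower at 48 h under both labels, by -0.55 in WT and -0.42 in LIXs. These pairs have 1 array a side and were not tested.

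Among brightest probes, those of Lman1 and Sec24c stood widest apart between the refed and fasted arrays. Lman1 was the lowest of all on the fasted array, at 244, against 597 refed and 674 to 944 on the Dox arrays. The refed array was higher by 1.74 (log2), or 3.35-fold. Sec24c went the other way, with 1196 on the fasted array, 610 on the refed one and 457 to 646 on the Dox arrays, a refed minus fasted difference of -1.09, or 2.13-fold. These were 1 of 8 genes at least 2-fold higher and 1 of 8 at least 2-fold lower on the refed array, where 12.3% and 12.0% of 8877 genes were. The 8877 genes were detected on at least 1 of the 2 arrays. Of the 7654 genes passing the filter on the Dox arrays, as these 8 did, 956 were higher and 444 lower by that measure. With 1 gene of 8 each way, the members' share cannot be told from that of all genes.

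Sec23a (160 refed, 224 fasted, -0.95, or -0.48 without background correction) and the brighter Sar1b probe (5955 and 10730, -0.86) also read higher on the fasted array. The dimmer Sar1b probe read 1573 and 1566, so the mean over both was -0.43. For Sec31a the probes disagreed again: the brighter one read 275 and 265, the dimmer one 204 and 276. The second Sec24d probe was not detected on the refed array (118) and was at least 2.27-fold higher on the fasted one (176), whereas the brighter one read 231 and 221. Which of a pair reports the main transcript was not tested. Sec16a read 907 refed and 1380 fasted (-0.66), and Sec13 3907 and 3227 (0.28).

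The fasted array lay outside the range of the other 5 for 6 of the 8 genes, above it for Sec23a, Sec24c and Sar1b and below it for Sec13, Sec24d and Lman1. The same held for 63.7% of all tested genes. On that array the hepatocyte marker sum was the lowest, 149935 against 174915 to 191289 on the others. Not every marker was low there, and Serpina1b read highest on it, at 50652. The 5 neutrophil markers, of which Camp was never detected, summed to 783 fasted, within the 683 to 825 of the Dox arrays. The refed array stood apart at 1980, mostly through S100a8 (1436, against 343 fasted), while Ngp read 108 refed and 135 fasted. The part of these in the feeding differences was not tested.

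**Figure D3:**
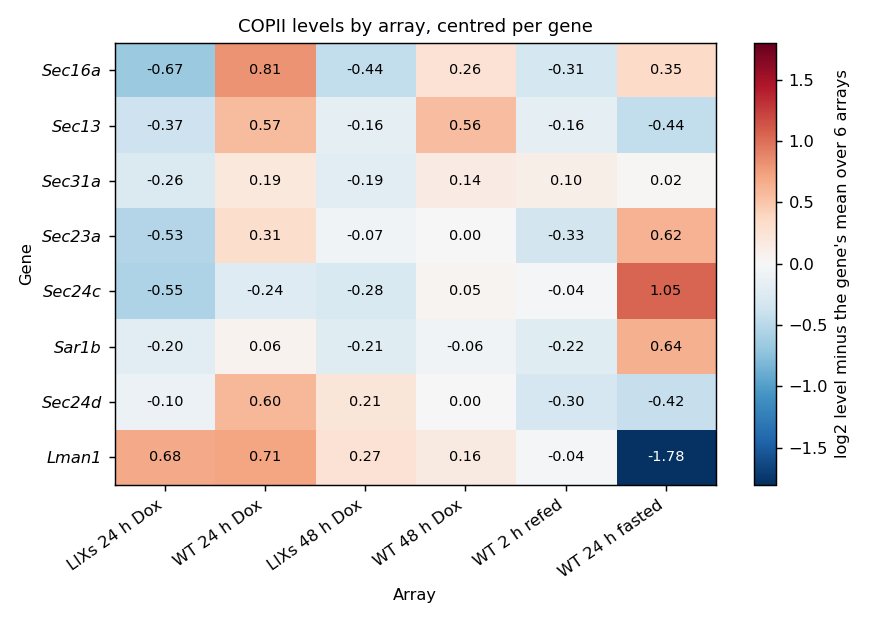
Log2 level of each tested COPII gene on each array (columns) minus that gene's mean over the 6 arrays, in log2 units. The fasted column runs from 1.05 for Sec24c to -1.78 for Lman1, whereas the widest gap between genotype labels is that of Sec16a at 24 h (-0.67 and 0.81).

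Other genes of the exit step were taken from a list of ER exit site factors and COPII paralogs. Of 14, 10 were tested, 1 was lower and 0 were higher, with a median of -0.35. With 4.32% of all genes lower, a single call among 10 is near the background. Preb (Sec12), the exchange factor that loads Sar1 with GTP, read 1441 and 3269 on the LIXs and WT arrays at 24 h and 1717 and 2598 at 48 h, and fell by 0.93 ± 0.23 (limma adjusted p = 0.038). Tfg, which organises exit sites, differed by -0.79 ± 0.22 (adjusted p = 0.053), but by -0.31 without the LIXs array at 24 h and -1.28 without that at 48 h. Sar1a, the paralog of Sar1b, differed by -0.55 (adjusted p = 0.151) and Pef1, a calcium-binding adaptor of the cage, by -0.49 (0.182). Sec31b, Mia2, Klhl12 and Pdcd6 did not reach the filter on dim probes.

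Of 12 cargo receptors 11 were tested, 1 was lower and 0 were higher, with a median of -0.21. Against 4.32% lower and 4.14% higher among all genes, this count too is near the background. Mcfd2, the partner of Lman1 in the export of factors V and VIII, had intensities of 3045 and 7494 at 24 h, 3923 and 6762 at 48 h, 3884 refed and 5795 fasted. It fell by 1.06 ± 0.23 (limma adjusted p = 0.031), while Lman1 itself differed by 0.04. The difference between these partners was not tested. Lman2, a lectin, differed by -0.43 (adjusted p = 0.276), Surf4, a receptor for soluble cargo, by -0.39 (0.252) and Bcap31, an ER membrane sorting protein, by 0.39 (0.269). Lman1l did not reach the filter.

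All 22 genes of the tethers, Rab GTPases and SNAREs that receive COPII vesicles were tested. Of these 4 were lower and 0 higher, against 4.32% and 4.14% of all genes. A difference below 0 was seen in 17 of the 22, as in 3761 of all 7654 genes, and the median was -0.51. The lower genes were the SNAREs Stx5a at -1.20 ± 0.28, Gosr2 at -0.90 ± 0.21 and Sec22b at -0.85 ± 0.21, and the TRAPP tether subunit Trappc1 at -0.77 ± 0.21 (limma adjusted p from 0.035 to 0.049). With the mean of detected probes the calls of Gosr2 (-0.53, adjusted p = 0.128) and Trappc1 (0.053) ended, and median scaling also ended that of Trappc1 (0.056). Stx5a read 1732 and 5849 on the LIXs and WT arrays at 24 h and 2651 and 3916 at 48 h, so its difference was much wider in the 24 h pair (-1.81 against -0.58). Gosr2 and Sec22b were also higher on the fasted array than on the refed one, at 879 and 474, and at 2872 and 1483. On the refed array 3 of the 22 were at least 2-fold lower than on the fasted one and 1 at least 2-fold higher. Of all 7654 tested genes 444 and 956 were, and the list's median refed minus fasted difference was -0.10.

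The list of hepatocyte proteins that leave by this route, or help lipoproteins to do so, had a median above 0. Of 14 tested genes for secreted cargo and lipoprotein export 1 was higher and 0 lower, which is near the background of 4.14% and 4.32%. A difference below 0 was seen in 1 of the 14, against 3761 of all 7654 genes, and the median was 0.35. Hepatocyte markers that are not secreted had like values, 0.62 for Cps1 and 0.51 for Ass1, enzymes of the urea cycle (limma adjusted p = 0.085 and 0.139), and 0.19 for Cyp2e1. Serpinc1, which encodes antithrombin, read 423 and 293 at 24 h and 375 and 239 at 48 h, and rose by 0.83 ± 0.21 (limma adjusted p = 0.040), a call that ended with the mean of detected probes (0.56, adjusted p = 0.100). F5, cargo of Lman1 and Mcfd2, differed by 0.70 ± 0.21 (adjusted p = 0.065), Alb by 0.68 on its dim probe (0.078) and Mttp, which loads lipid onto apolipoprotein B, by 0.58 (0.105). The list includes 5 members of the Serpina1 family, whose near-identical copies may share probe signal. The 4 lists were chosen with results of these arrays known, so their counts describe the route and give no independent support.

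The calls in these lists ended without the time block or without the filter on dim probes. Most also ended when 1 array was left out, but such a fit has 1 array under a genotype label and no time block. A call lost there cannot be laid to the array left out, and this holds for the LIXs array at 24 h, which held the acinar signal. Without that array the differences were -0.80 for Preb, -0.88 for Mcfd2, -0.87 for Stx5a and -0.70 for Gosr2. Those of Sec22b, Trappc1 and Serpinc1 were -0.52, -0.63 and 0.72.

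**Figure D4:**
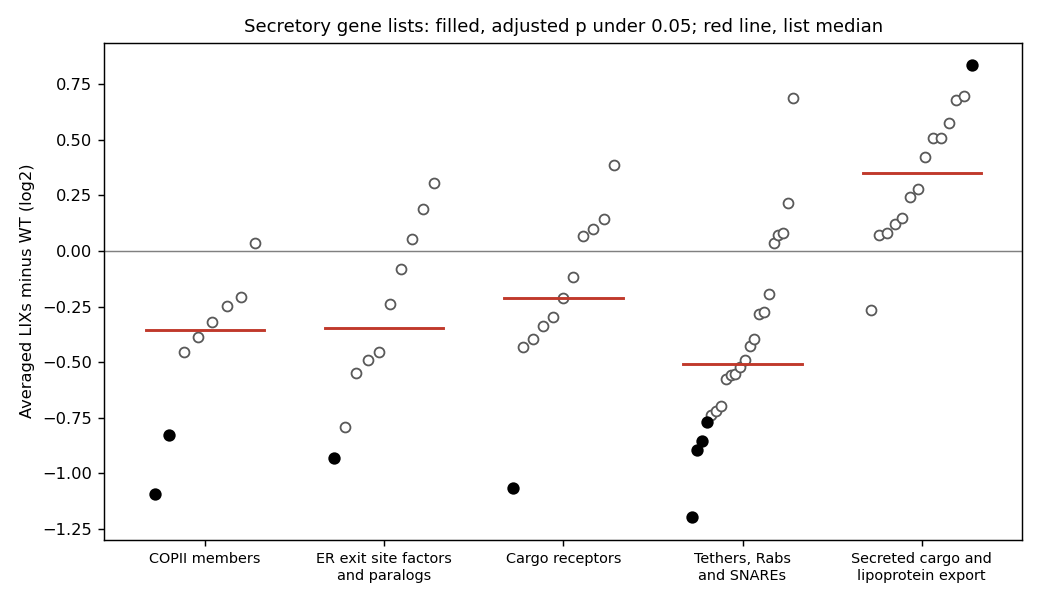
Averaged log2 difference between arrays labelled LIXs and WT for each tested gene, by list. Filled points passed the limma test at an adjusted p under 0.05 and red lines are list medians: -0.35 for the COPII members, -0.35, -0.21 and -0.51 for exit site factors, cargo receptors and tethers with SNAREs, and 0.35 for secreted cargo.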

How the data were processed

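Liver RNA was hybridised to Illumina bead arrays, per the labels' protocols. The authors deposited linear intensities for 45281 probes on 6 arrays, made with GenomeStudio per the submitters' processing notes, with version and settings not given in the sources used here. Sorted log2 values of the other arrays differed by at most 0.0199 from those of the LIXs array at 24 h. The table was therefore treated as normalized and not background-subtracted. The 12 columns of a second table match no sample name and were not used.

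Background was set at the mode of all intensities (109, SD 7.66 from the values below it). Limma 3.58.1 in R 4.3.3 then applied normexp, an offset of 16, quantile normalization and log2. The detection level was placed so that 0.01 of background values would exceed it. Of the probes, 34885 had 1 gene symbol, 18 several and 10378 none. Each gene was represented by its brightest probe. For genes across the genome, lmFit and eBayes were fitted on the 4 Dox arrays (prior 9.58 degrees of freedom, SD 0.221), with an adjusted p threshold of 0.05. Comparisons of 2 arrays had no test. Alternatives covered background, offset, filter, probe choice, block, scaling, prior and left-out arrays.

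The members and lists were chosen with earlier results of these data known. Named genes were Xbp1, all members, every list gene past the test, up to the 4 largest differences of each list, and the 5 genes most like the members' mean profile.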

Additional observations from a re-analysis of the deposited data

Results flagged for a closer look

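The difference between genotype labels had opposite signs at the 2 times for Sec24d (-0.70 at 24 h and 0.21 at 48 h) and for Lman1 (-0.030 at 24 h and 0.10 at 48 h). The difference between times was not tested, since each pair has 1 array a side. With the mean of both detected Sec24d probes the 48 h value was -0.14, so the opposite sign held for the brighter probe only. For Lman1 both values lie well within 0.313, the SD of a difference of 2 arrays under limma's prior. The 48 h value of the brighter Sec24d probe (0.21) lies within it as well.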

How the results depend on the processing

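The median averaged difference of the COPII members was below 0 under all 13 alternatives (-0.48 to -0.22). Without a time block and without a filter on dim probes, limma called 0 COPII members, 0 genes in each of the 4 lists and 0 of all genes, with 1810 and 2910 at an unadjusted p under 0.05. Of all genes, 1671 passed without background correction, 1282 with an offset of 50, 1422 with a trended prior, 913 when detected on all 4 arrays, 622 with the mean of detected probes and 544 with median scaling, against 648. In those settings 2 COPII members were lower in each. Lower exit site factors numbered 4 without background correction and 2 with an offset of 50, a trended prior, detection on all 4 arrays or the mean of detected probes. Lower tethers and SNAREs numbered 9 without background correction and 8 with a trended prior. Higher cargo genes numbered 5 without background correction, 4 with a trended prior, 2 with an offset of 50 or detection on all 4 arrays, and 0 with the mean of detected probes. Leaving out 1 array in turn gave 0 to 355 of all genes, 0 to 1 COPII members and 0 to 1 genes in each list. Where a call was lost with fewer arrays, the fit had 3 arrays and no block. The cause of the other changes was not tested. The time block pairs LIXs and WT arrays within a time, so the fit without it is the unpaired one.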

Other observations

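The COPII genes did not share 1 profile. Over the 28 pairs of the 8 genes, Pearson's r over the 6 arrays had a median of 0.37, with 19 pairs above 0. Sec24c and Sar1b had the closest pair (0.90), and Sec24c and Lman1 the most opposed (-0.97), with the fasted array at the extreme of each of these genes. All pairs share the same 6 arrays.

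Of 6065 genes outside the members with an SD of at least 0.3, those most like the members' mean profile were Rusf1 (r = 0.998), Sugp1, a spliceosome-associated protein (0.991), Dhx58, a RIG-I-like receptor (0.985), Tmem214, an ER membrane protein (0.984) and Vmac (0.982). These values come from 6 arrays only and are the highest of many. On the LIXs and WT arrays the mean profile (centred log2) read -0.25 and 0.38 at 24 h, and -0.11 and 0.14 at 48 h. A lower LIXs level of these genes thus follows largely from their choice, and gives no separate support. Rusf1 read 276 and 679 on the LIXs and WT arrays at 24 h, 323 and 441 at 48 h, 305 refed and 377 fasted, and its averaged difference was -1.14 (limma adjusted p = 0.035). Tmem214 read 531 and 1082, 616 and 832, 626 and 654 in the same order.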
